A study of Arabis alpina with 18 samples.

Results

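A rule for a fall with age in Arabis alpina shoot apices kept 46 of the 34220 genes in the deposited count table. It asked for a level at least 3-fold lower at 5 weeks than at 3 weeks in both genotypes sampled. Limits on level and annotation, given below, also applied. Arabis alpina is a perennial relative of Arabidopsis thaliana. Poly(A) RNA was sequenced from eop055 mutants and pep1-1 mutants, all of the Pajares accession and raised in long days. In each genotype, dissected apices were taken at 5 weeks and at 3 weeks and the fifth and the sixth leaf at 5 weeks, which gives 6 groups of 3 libraries, or 18 libraries. No source used here gives the lesion in eop055 or says whether those plants also carry pep1-1. A wild type was not analysed here. Nothing says whether the replicates were separate plants or pools, so the p-values measure only the spread between these libraries, which may be technical.

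The 46 genes were chosen from the apex values themselves. Counts were divided by each library's total over genes and scaled to a library total of 1000000, as CPM, and 1 CPM was added to each group mean. A gene was kept if the mean at 3 weeks over that at 5 weeks was at least 3 in both genotypes and if 3-week pep1-1 apices averaged at least 5 CPM. Of the 48 genes that passed, 2 annotated as a cytochrome P450 or a phi-class glutathione transferase were left out by the rule. The members are 0.297% of the 15490 genes with at least 5 CPM in 3-week pep1-1 apices. Their fall with age is therefore a description and was not tested. CPM are not corrected for gene length, so levels are compared within a gene and not between genes.

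PEP1 is the Arabis alpina counterpart of the Arabidopsis floral repressor FLC, a MADS-domain transcription factor, and plants that lack its function flower without a cold period. A shoot apex holds the meristem, where organs start, together with young leaf primordia and stem tissue, so RNA from a dissected apex is a mixture of dividing, expanding and differentiating cells. As plants pass from leaf to flower production, the makeup of that mixture changes. In such bulk samples, fewer cells of a type and less RNA per cell cannot be told apart.

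Libraries held 7987096 to 14132723 gene counts. The labelled tissues could not be checked against markers, since 0 of 28 Arabidopsis loci fixed for meristem, photosynthetic tissue, root, vascular tissue, epidermis and dividing cells carry a name in the files. The files pair names only with genes that the authors listed as differing between genotypes. Of the 46 members 14 are in those lists, 7 carry an Arabidopsis locus and 39 do not. The named members' differences between genotypes are not independent evidence, because being listed is what gave them a name.

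At 5 weeks the 46 genes summed to 579 ± 201 CPM in eop055 apices, against 3086 ± 377 CPM at 3 weeks (SD, n = 3 each). In pep1-1 apices they summed to 558 ± 124 CPM at 5 weeks, against 2755 ± 81.7 CPM at 3 weeks (SD, n = 3 each). The ratio of CPM + 1 by which a member was lower at 5 weeks ranged over 3.04 to 23.5 in eop055, with a median of 4.90. In pep1-1 it ranged over 3.02 to 10.8, with a median of 4.13. For all 46 members the 3 libraries at 5 weeks lay below the 3 libraries at 3 weeks in both genotypes. Among all 21275 genes tested, 17.6% were separated in that way in eop055 and 18.5% in pep1-1, and since the rule used these values nothing is read from the comparison.

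**Figure D1:**
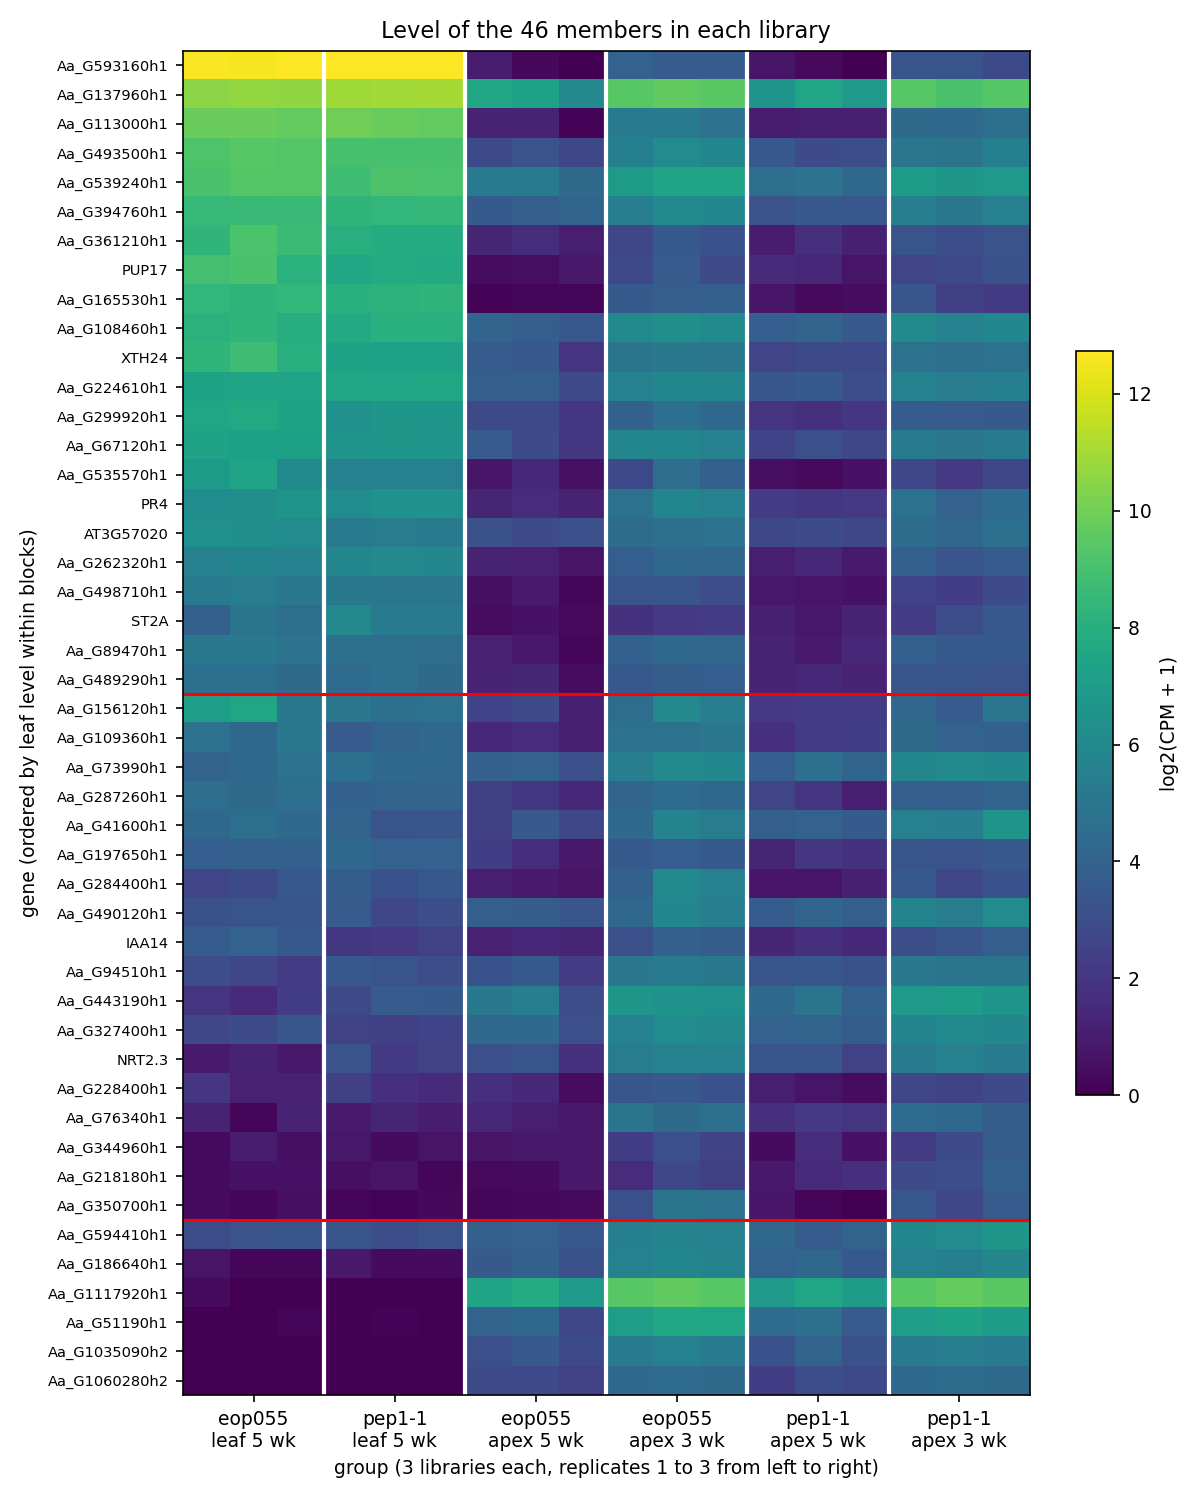
Level of each of the 46 members (rows) in each of the 18 libraries (columns, grouped by tissue, age and genotype), as log2(CPM + 1), with red lines between the 22 members high in leaves, the 18 between and the 6 low in leaves. The apex columns at 5 weeks are below those at 3 weeks of the same genotype for all 46 members. The leaf columns run from far above to far below the apices.

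The smallest ratios among the members were 3.02 for PUP17 in pep1-1, 3.04 for AT3G57020 in eop055 and 3.08 for ST2A in eop055. The 3 unnamed genes just outside the fold threshold had a lower ratio of 2.99, 2.97 and 2.95. On the level threshold, the lowest member averaged 5.01 CPM in 3-week pep1-1 apices, and 12 genes that passed both ratios were left out below it, the highest of them at 4.94 CPM. The set thus has no gap at its edge.

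Single libraries stood apart over many members. Replicate 3 of the 5-week eop055 apices was below the mean of the other replicates in 38 of 46 members, with a median difference of -0.55 on the log2(CPM + 1) scale. Replicate 1 of the 3-week eop055 apices was below the mean of its fellow replicates in 39 members, with a median of -0.29. No other library was compared in this way. Neither offset was computed over all genes, so whether it is particular to the members is not known. Without the 5-week library the rule kept 40 genes, all 40 of them among the 46.

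2 of the named members belong to transporter families. NRT2.3 (AT5G60780, Aa_G127300h1) is a member of the NRT2 family, whose Arabidopsis members include high-affinity nitrate transporters. In eop055 apices it had 7.66, 8.83 and 2.56 CPM in replicates 1 to 3 at 5 weeks, against 39.8, 47.5 and 49.6 CPM at 3 weeks. In pep1-1 apices it had 9.05, 9.14 and 4.71 CPM at 5 weeks, against 36.9, 45.6 and 36.2 CPM at 3 weeks. The ratio was 6.34 in eop055 and 4.70 in pep1-1, and the 2 genotypes overlapped at either age. Its leaf libraries had 0.862, 1.31 and 0.806 CPM in eop055, against 8.59, 3.42 and 4.56 CPM in pep1-1. All 3 eop055 leaves were thus below every apex library, whereas the pep1-1 leaves lay in the range of the 5-week apices.

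PUP17 (AT1G57943, Aa_G56990h1) belongs to the purine permease family, named for carriers of purines and related compounds. It was near the detection limit in apices at 5 weeks, with 0.348, 0.381 and 0.826 CPM in eop055, against 6.08, 11.7 and 6.72 CPM at 3 weeks. The pep1-1 apices had 1.95, 1.75 and 0.658 CPM at 5 weeks, against 5.39, 5.93 and 7.92 CPM at 3 weeks. In leaves it reached 481, 536 and 283 CPM in eop055, against 195, 225 and 219 CPM in pep1-1. The ratio of CPM + 1 in leaves over 3-week apices was 39.1, so the gene was far higher in leaf than in either apex stage.

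XTH24 (AT4G30270, Aa_G156070h1) encodes a xyloglucan endotransglucosylase/hydrolase, an enzyme class that cuts and rejoins xyloglucan in the cell wall. In eop055 apices it had 12.2, 10.5 and 2.89 CPM at 5 weeks, against 28.5, 33.6 and 32.1 CPM at 3 weeks. Its levels in pep1-1 apices were 5.38, 6.26 and 6.36 CPM at 5 weeks, against 26.5, 23.0 and 25.8 CPM at 3 weeks. The 5-week eop055 apices were the most variable of these groups, with replicate 3 well below the others. Leaves held 319, 432 and 254 CPM in eop055, against 161, 157 and 158 CPM in pep1-1, all above every apex library.

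Among the members tied to hormones is IAA14 (AT4G14550, Aa_G658530h1), an Aux/IAA repressor of auxin-responsive transcription that acts in lateral root formation in Arabidopsis. It had 1.22, 1.68 and 1.49 CPM in eop055 apices at 5 weeks, against 7.64, 13.8 and 12.4 CPM at 3 weeks. In pep1-1 apices it had 1.56, 2.25 and 1.75 CPM at 5 weeks, against 7.34, 9.41 and 13.5 CPM at 3 weeks. The genotypes overlapped at each age. In leaves it had 12, 15.2 and 10.3 CPM in eop055, against 3.14, 3.28 and 4.63 CPM in pep1-1, so eop055 leaves were at the level of 3-week apices and pep1-1 leaves below it.

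ST2A (AT5G07010, Aa_G672340h1) encodes a sulfotransferase that acts in Arabidopsis on hydroxylated jasmonate, a step that turns the hormone over. Its levels in eop055 apices were 0.348, 0.533 and 0.248 CPM at 5 weeks, against 2.65, 3.32 and 3.72 CPM at 3 weeks. In pep1-1 apices they were 1.17, 0.751 and 1.43 CPM at 5 weeks, against 3.71, 7.04 and 10.1 CPM at 3 weeks. At 5 weeks all 3 eop055 apices were below the pep1-1 apices, and at 3 weeks the genotypes overlapped narrowly. In leaves it had 13.8, 29.0 and 23.1 CPM in eop055, against 63.3, 38.1 and 37.4 CPM in pep1-1, and the ratio of CPM + 1 in leaves over 3-week apices was 5.76.

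The named member with a role in defence is PR4 (AT3G04720, Aa_G4410h1), a hevein-like chitin-binding protein used as a marker of pathogen responses in Arabidopsis. In eop055 apices it had 1.48, 2.06 and 1.40 CPM at 5 weeks, against 26.4, 56.3 and 45.7 CPM at 3 weeks. The pep1-1 apices had 3.75, 3.26 and 3.40 CPM at 5 weeks, against 27.0, 15.3 and 20.9 CPM at 3 weeks. Its ratio was 16.6 in eop055 and 4.93 in pep1-1, with eop055 lower at 5 weeks in all 3 libraries and overlapping pep1-1 at 3 weeks. Leaves had 72.4, 78.0 and 96.8 CPM in eop055, against 72.2, 85.1 and 87.2 CPM in pep1-1, and did not separate by genotype.

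AT3G57020 (Aa_G238720h1) encodes a strictosidine synthase-like protein, a family named after an alkaloid enzyme of other plants. It varied little between replicates, with 7.83, 6.85 and 7.60 CPM in eop055 apices at 5 weeks, against 21.8, 25.2 and 27.0 CPM at 3 weeks. Its levels in pep1-1 apices were 5.85, 6.64 and 5.59 CPM at 5 weeks, against 21.6, 17.7 and 24.3 CPM at 3 weeks. At 5 weeks the eop055 apices were all above the pep1-1 apices. Leaves had 82.3, 80.7 and 68.6 CPM in eop055, against 38.8, 40.5 and 37.3 CPM in pep1-1.

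**Figure D2:**
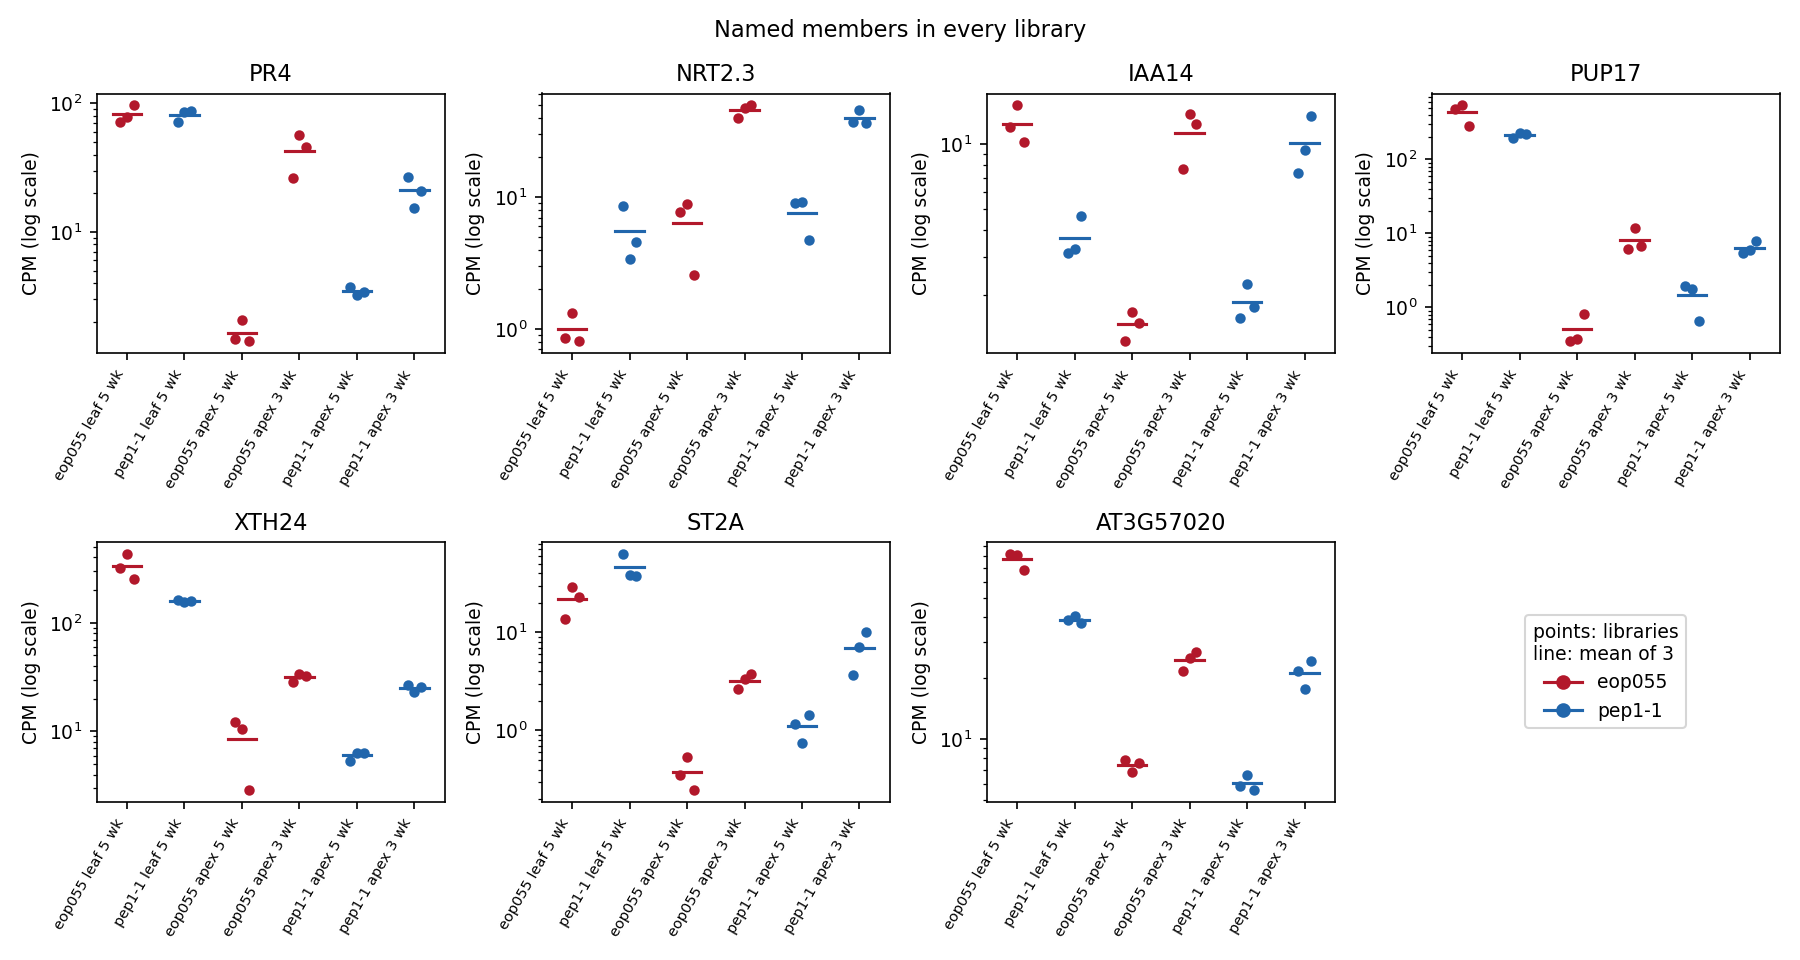
Level of the 7 named members in every library, in CPM on a log scale, where points are single libraries and lines are group means (n = 3). All apex points at 5 weeks are below those at 3 weeks of the same genotype, and leaves are above the 3-week apices for PR4, PUP17, XTH24, ST2A and AT3G57020.

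Other named genes with like annotations also differed with apex age, in both directions. The counts that follow include the members themselves, and only named genes could be searched. Of 1381 named genes tested, 362 were lower and 218 higher at 5 weeks in eop055, and 280 were lower and 168 higher in pep1-1. Over all genes tested the calls came to 19.4% lower and 16.5% higher in eop055, and to 20.3% lower and 18.7% higher in pep1-1.

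Of 90 transporter and permease genes, 39 were lower and 18 higher at 5 weeks in eop055, and 29 were lower and 12 higher in pep1-1. For 13 chitinase and pathogenesis-related genes, 8 were lower and 2 higher in eop055, and 7 were lower and 1 higher in pep1-1. Cell wall annotations marked 43 genes, with 17 lower and 5 higher in eop055 and 7 lower and 4 higher in pep1-1. Jasmonate annotations marked 14 genes, with 2 lower and 1 higher in eop055 and 9 lower and 0 higher in pep1-1. These calls were made with edgeR's quasi-likelihood test at a Benjamini-Hochberg adjusted p under 0.05 over all genes. The other 8 lists of annotation words held no member.

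Among the unnamed members the largest mean fall was that of Aa_G113000h1, chosen after its values were seen. It had 1.39, 1.29 and 0.0826 CPM in eop055 apices at 5 weeks, against 35.5, 37.6 and 27.3 CPM at 3 weeks. In pep1-1 apices it had 0.936, 1.13 and 1.21 CPM at 5 weeks, against 20.3, 19.5 and 24.8 CPM at 3 weeks. Its leaf levels were 892, 895 and 806 CPM in eop055, against 992, 860 and 814 CPM in pep1-1, far above all apices.

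Aa_G593160h1 had 0.957, 0.228 and 0 CPM in eop055 apices at 5 weeks, where it was counted 11, 3 and 0 times. At 3 weeks those apices had 15.3, 12.3 and 11.5 CPM. The pep1-1 apices had 0.624, 0.250 and 0 CPM at 5 weeks, from 8, 2 and 0 counts, against 8.84, 8.86 and 6.23 CPM at 3 weeks. A count of 0 allows up to 0.248 CPM in that eop055 library and up to 0.329 CPM in that pep1-1 library, counting error only. Its leaf levels were 6437, 5946 and 6776 CPM in eop055, against 6661, 6816 and 6805 CPM in pep1-1. Leaves were thus far above every apex library, and the genotypes overlapped there.

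Aa_G1117920h1 showed the opposite placing of the leaf. It had 175, 226 and 117 CPM in eop055 apices at 5 weeks, against 679, 780 and 686 CPM at 3 weeks. Its levels in pep1-1 apices were 117, 183 and 128 CPM at 5 weeks, against 679, 848 and 722 CPM at 3 weeks. Leaves had 0.287, 0 and 0 CPM in eop055, from 4 counts in replicate 1, and 0 counts in all 3 pep1-1 libraries, which allows up to 0.0741 CPM over those libraries. The gene was therefore abundant in apices at both ages and at or near 0 in leaves.

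The fall was larger in eop055 than in pep1-1 for 33 members and larger in pep1-1 for 13. At 3 weeks 36 members were higher in eop055 by group mean and 10 lower, with a median ratio of CPM + 1 of 1.24 in eop055 over pep1-1, and on that ratio 5 were at least 2-fold higher and 1 at least 2-fold lower. By 5 weeks 18 were higher and 28 lower in eop055, with a median of 0.923, and on that ratio 0 differed by 2-fold. The added 1 CPM draws the ratios of genes near 1 CPM toward 1. ST2A averaged 0.376 CPM in eop055 and 1.12 CPM in pep1-1 at 5 weeks. In the other direction, Aa_G535570h1 averaged 0.956 and 0.396 CPM. The rule used these libraries, and no share over all genes was computed for these counts, so these values are a description. Large falls were more frequent in eop055 over all genes tested too. There 1.05% were at least 3-fold lower at 5 weeks in eop055 and 0.456% in pep1-1, members included.

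The widest gap between genotypes at 3 weeks was that of the unnamed Aa_G284400h1, chosen after its values were seen. In eop055 apices it had 1.13, 0.914 and 0.578 CPM at 5 weeks, against 14.4, 67.8 and 46.7 CPM at 3 weeks. In pep1-1 apices it had 0.702, 0.626 and 1.21 CPM at 5 weeks, against 10.3, 5.54 and 8.28 CPM at 3 weeks. The ratio of CPM + 1 in eop055 over pep1-1 at 3 weeks was 4.87, with replicate 1 of eop055 close to the pep1-1 libraries and the other replicates far above them.

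The leaf libraries were not used by the rule and split the members. In 22 of 46 members, or 47.8%, all 6 leaf libraries were above all 6 apices at 3 weeks. That placing held for 18.9% of all genes tested and for 15.6% of those with at least 5 CPM in 3-week pep1-1 apices. In 6 members, or 13.0%, all leaf libraries were below all 6 apices at 5 weeks, against 59.6% of all genes tested and 67.0% of those with at least 5 CPM. The remaining 18 members lay between or overlapped the apices. The rule asked for a high level at 3 weeks and a low one at 5 weeks, which makes both placings harder to reach than for other genes.

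Summed over members, leaves held 13506 ± 227 CPM in eop055 and 13112 ± 170 CPM in pep1-1 (SD, n = 3 each). In the 22 members high in leaves, leaf means were 22.3 to 6574 CPM. Their ratios of CPM + 1 in leaves over 3-week apices were 1.83 to 572, with a median of 5.16. Over 5-week apices the same ratios were 7.64 to 4894, with a median of 24.7, and the added 1 CPM lowers those of genes near 0 in apices. They include PR4, PUP17, XTH24, ST2A and AT3G57020, while NRT2.3 and IAA14 are among the 18 and none of the 6 low in leaves is named. By group mean 21 of the 22 were higher in eop055 than in pep1-1 apices at 3 weeks. Their median age ratio was 6.16 in eop055 and 4.26 in pep1-1, against 4.22 and 4.17 for the 6 members low in leaves. The rule used these apex libraries, and no share over all genes was computed, so these apex values are a description.

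At the lower end, 8 members averaged under 1 CPM in leaves, and 2 of them had 0 counts among 79496254, which allows up to 0.0377 CPM. Leaf and apex libraries differ in makeup, and in CPM with no further scaling the median gene was lower in leaves than in 5-week apices by log2 values of -0.87 in eop055 and -0.76 in pep1-1. After scaling by TMM (trimmed mean of M-values), these medians were -0.12 and -0.10. On the TMM scale the rule kept 49 genes, of which 42 are among the 46. Placed on that scale, 24 of the 46 were above and 5 below, an alternative added after the data had been seen. The shares of these placings over all genes were not computed on that scale.

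**Figure D3:**
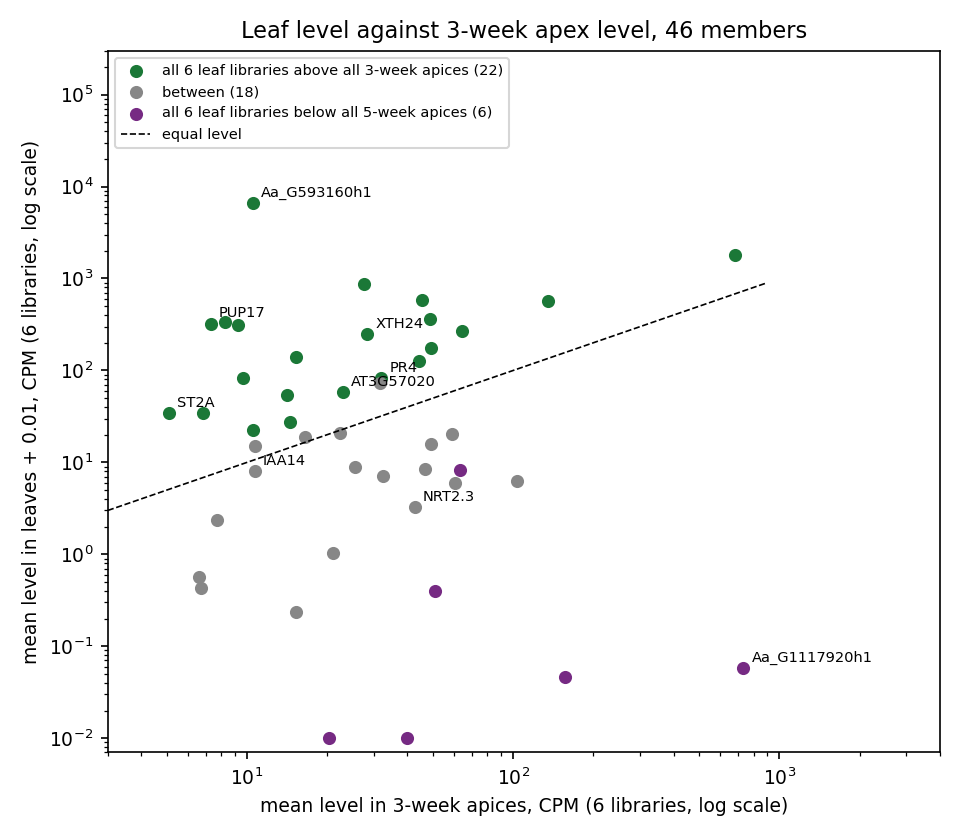
Mean level of each of the 46 members in leaves (vertical, CPM + 0.01, 6 libraries) against that in 3-week apices (horizontal, CPM, 6 libraries), both on log scales, with colours for the placing of the leaf libraries. The 22 members high in leaves lie above the line of equal level, and Aa_G593160h1 and Aa_G1117920h1 mark the opposite ends.

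A lower level at 5 weeks was also common among other leaf-abundant genes. A set of 198 genes with at least 100 CPM in leaves and at least 10 times the apex mean was drawn up after the data had been seen. It includes 9 members. In eop055 its median log2 ratio of 5 over 3 weeks was -0.71, and 183 of the genes were lower and 15 higher at 5 weeks. In pep1-1 the median was -0.20, with 137 lower and 61 higher. Over all genes tested the medians were 0.12 and 0.11, or 0.01 and 0.01 after TMM scaling.

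At 5 weeks 36 of the 198 genes were at least 3-fold lower in eop055, or 18.2%, and 11 in pep1-1, or 5.56%, against 1.05% and 0.456% of all genes tested. By the rule, the 9 members in the set are among both the 36 and the 11, and all 46 are in the shares of all genes. These shares are thus not independent of the choice of members. Genes under 1 CPM in leaves with at least 5 CPM in 3-week pep1-1 apices numbered 693 and included 8 members. Their medians were 0.30 in eop055 and 0.04 in pep1-1, and 18 of them were at least 3-fold lower in each genotype, or 2.60%. The 8 members are by the rule among the 18 in each genotype. The medians of the leaf-abundant genes thus lay on the same side of 0 as the members. The part of leaf-abundant RNA in the fall of the members was not tested.

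**Figure D4:**
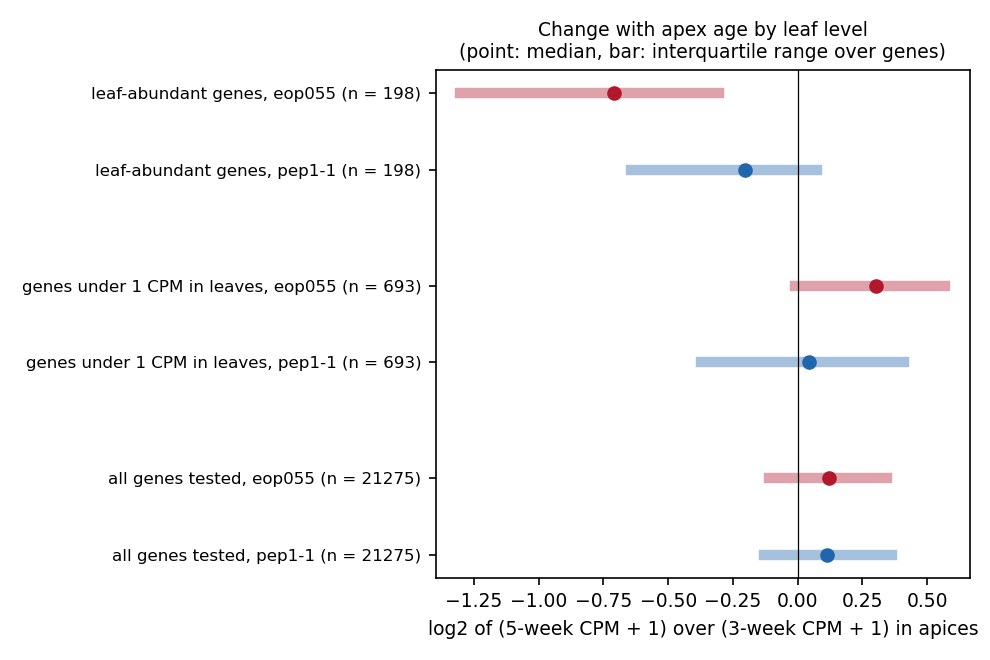
Log2 ratio of the 5-week over the 3-week apex mean (CPM + 1) in eop055 and pep1-1 for the 198 leaf-abundant genes, the 693 genes under 1 CPM in leaves and all genes tested. Points are medians over genes and bars the interquartile range over genes, and the leaf-abundant genes are at -0.71 in eop055 and -0.20 in pep1-1.

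Leaves of eop055 and pep1-1 were compared in a test on libraries that the rule did not use. Of the 46 members 11 were higher in eop055 leaves and 2 lower, or 23.9% and 4.35%. Among all genes tested 15.0% were higher and 11.6% lower, and among those with at least 5 CPM in 3-week pep1-1 apices 14.5% were higher and 14.7% lower. The median log2 fold change was 0.26 over the members and -0.01 over all genes tested. Calls were made with edgeR's quasi-likelihood test and a Benjamini-Hochberg adjusted p under 0.05. None of the 13 genes overlapped between genotypes in leaves. The calls rest on the same libraries and no share over all genes was computed, so nothing is read from that. Leaving out 1 library at a time gave 10 to 13 higher and 1 to 4 lower, the 4 without eop055 5-week apex replicate 3. These fits share 1 estimate of the spread per gene over leaves and apices. When only the leaf libraries were fitted, 14 were higher, with 8 of the 11 among them, and 3 lower, with 1 of the 2 among them.

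IAA14 rose 3.64-fold, with 12.5 ± 2.48 CPM in eop055 leaves and 3.68 ± 0.824 CPM in pep1-1 leaves (SD, n = 3 each). Its log2 fold change was 1.86 ± 0.248 (SE), and the quasi-likelihood test of edgeR gave an adjusted p of 1.51e-05. XTH24 rose 2.29-fold, with 335 ± 89.8 CPM in eop055 leaves and 159 ± 2.59 CPM in pep1-1 leaves (adjusted p = 0.00408, edgeR). PUP17 rose 2.21-fold in eop055 leaves (adjusted p = 0.00334, edgeR), a call lost when only the leaf libraries were fitted (adjusted p = 0.0562, edgeR). AT3G57020 rose 2.14-fold, with 77.2 ± 7.47 CPM in eop055 leaves and 38.9 ± 1.58 CPM in pep1-1 leaves (adjusted p = 7.63e-08, edgeR). In all 4 the lowest eop055 leaf library was above the highest pep1-1 leaf library.

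NRT2.3 fell 5.21-fold, with 0.994 ± 0.278 CPM in eop055 leaves and 5.52 ± 2.71 CPM in pep1-1 leaves (adjusted p = 0.00704, edgeR). ST2A fell 1.96-fold, with 22.0 ± 7.66 CPM in eop055 leaves and 46.3 ± 14.7 CPM in pep1-1 leaves (adjusted p = 0.0245, edgeR). The ST2A call was lost in 5 of 24 alternative fits, among them the fit of leaf libraries alone (adjusted p = 0.140, edgeR). It was also lost without pep1-1 leaf replicate 1, where the log2 fold change was -0.69 (adjusted p = 0.111, edgeR), and without eop055 leaf replicate 1 or 3. For PR4 the log2 fold change was 0.12 ± 0.217 (adjusted p = 0.757, edgeR), and it was not called.

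Of the 7 unnamed members that rose in eop055 leaves, all named here after their values were seen, the log2 fold change was largest in Aa_G156120h1 at 2.25. That gene had 141, 183 and 35.1 CPM in eop055 leaves, against 31.6, 24.3 and 26.5 CPM in pep1-1 leaves, so 1 of the 3 eop055 libraries was close to pep1-1. Aa_G535570h1 had 120, 172 and 67.6 CPM in eop055 leaves, against 47.3, 47.5 and 45.8 CPM in pep1-1 leaves, with a log2 fold change of 1.47. Aa_G299920h1, Aa_G361210h1, Aa_G109360h1, Aa_G67120h1 and Aa_G89470h1 had log2 fold changes of 0.97, 0.93, 0.88, 0.69 and 0.54. By placing of the leaf, 8 of the 22 members high in leaves rose, or 36.4%, and 3 of the 18 between, or 16.7%. Among all genes tested 15.0% rose, and genes of like leaf level were not compared. For the members low in leaves, 0 of 6 were called. Of these, 2 had 0 leaf counts, Aa_G1117920h1 had 4 and Aa_G51190h1 had 3 over all leaf libraries. A call was hardly possible for them.

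In apices, the genotypes were compared over the average of both ages. The same 12 libraries chose the members, by the ratio of ages and by the level in 3-week pep1-1 apices, so the values that follow are a description and no p is given. On edgeR's log2 scale the median difference of eop055 over pep1-1 was 0.08 over the members and 0.00 over all genes tested. In the fit over all genes 2 of 46 members passed the threshold as higher in eop055 apices and 2 as lower, or 4.35% each, against 4.43% and 3.31% of all genes tested. The higher ones were Aa_G299920h1, with a log2 fold change of 0.82 ± 0.210 (SE), and Aa_G394760h1, with 0.50 ± 0.134. The lower ones were Aa_G218180h1, with -1.54 ± 0.369, and Aa_G594410h1, with -0.52 ± 0.149. These 4 unnamed genes were singled out after their values were seen.

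None of the named members passed that threshold. ST2A had a log2 fold change of -1.35 ± 0.512 (SE) and PUP17 of -0.60 ± 0.497. XTH24 had 0.41 ± 0.259 and AT3G57020 had 0.25 ± 0.0955. PR4, NRT2.3 and IAA14 had log2 fold changes of -0.03, -0.04 and -0.09. Leaving out 1 library at a time gave 0 to 6 higher and 0 to 2 lower members. The 6 came without eop055 5-week replicate 3, with 1 gene shared with the 2 higher ones above.

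The genotype effect in leaves minus that in apices takes its apex part from the libraries that the rule used, so it too is given as values with no p. In the fit over all genes it passed the threshold as positive for 5 members and as negative for 1, or 10.9% and 2.17%, against 9.35% and 7.98% of all genes tested. Leaving out 1 library gave 2 to 6 positive and 0 to 5 negative, the 5 without eop055 5-week apex replicate 3. On the log2 scale the difference was 1.95 ± 0.337 for IAA14 (SE), whose effect was 1.86 in leaves and -0.09 in apices. For AT3G57020 it was 0.85 ± 0.139, with 0.25 in apices. NRT2.3 had a difference of -2.34 ± 0.627, from -2.38 in leaves and -0.04 in apices. PUP17 had 1.74 ± 0.547, and the unnamed Aa_G41600h1 and Aa_G109360h1 had 1.75 ± 0.544 and 1.01 ± 0.297. Over 23 alternative fits IAA14 and AT3G57020 were past the threshold in all, NRT2.3 in 20, Aa_G109360h1 in 18, Aa_G41600h1 in 9 and PUP17 in 7. Those fits reuse the apex libraries that chose the members, so these counts describe the dependence on processing only.

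**Figure D5:**
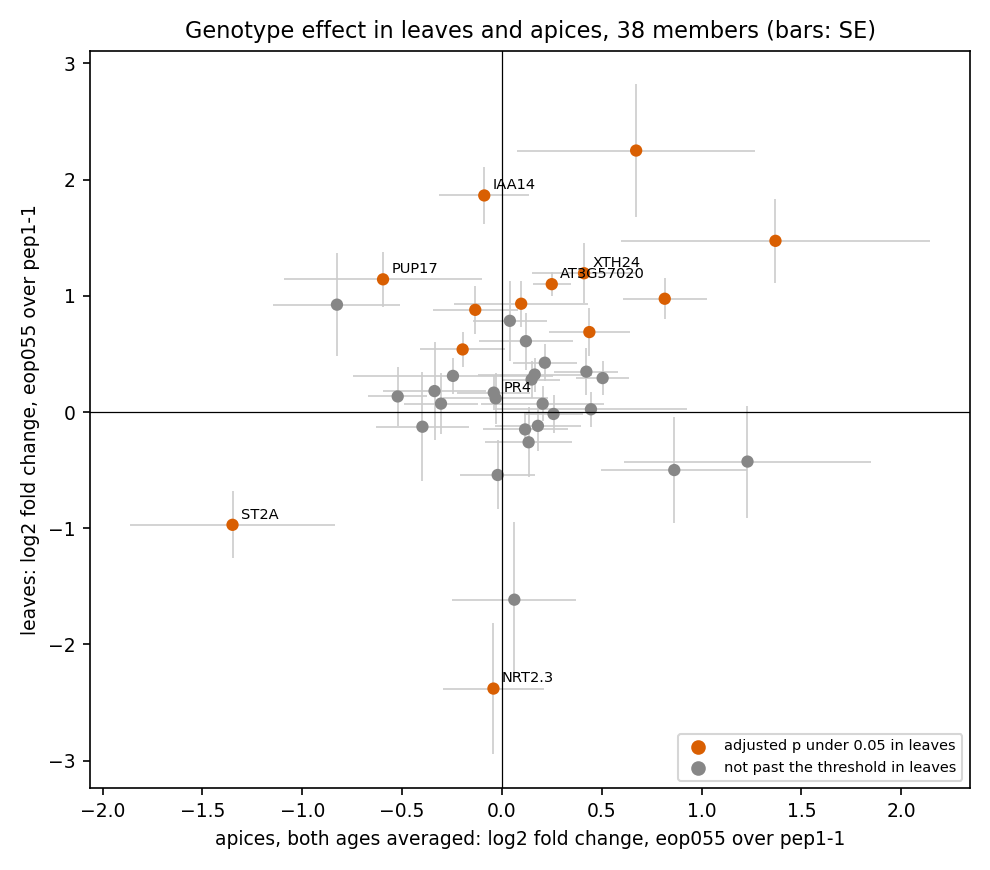
Log2 fold change of eop055 over pep1-1 in leaves (vertical) against that in apices averaged over both ages (horizontal) for the 38 members with at least 1 CPM in leaves, with colours for calls in leaves by edgeR and bars for the SE. IAA14 at 1.86 and NRT2.3 at -2.38 are farthest from 0 in leaves among named members, and both are near 0 in apices.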

How the data were processed

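Per the labels' protocols, directional libraries were made from poly(A) RNA of 1 µg total RNA and read as 100-base single reads. Alignment and counting tools in the submitters' processing notes are STAR and HTSeq 0.5.4p1, beside DESeq and DESeq2. Genome build, annotation and strand setting were not given in the sources used here, so copies and overlapping genes are uncertain, and 2 members share an ID stem with another entry. The deposited table holds raw read counts per gene, made by the authors. Their deposited lists of changed genes hold normalised signal means, log2 fold changes, fold ratios and p-values, per the file headers, and only the names and annotations were used. Entries that name no gene were left out (7.76 to 16.6% outside genes, 2.01 to 3.60% ambiguous).

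The members and lists were chosen with earlier results of these data known. Genes were filtered with filterByExpr (21275 kept, with all 46 members among them), scaled by TMM (factors 1.15 to 1.27 in apices, 0.651 to 0.730 in leaves) and fitted with edgeR 4.0.16 (R 4.3.3, limma 3.58.1) as 6 group means over 18 libraries. Contrasts were tested with the quasi-likelihood F test, steps tested on simulated data, and adjusted by Benjamini-Hochberg over all genes. For contrasts that hold apex libraries, which chose the members, the text gives values and counts with no p. The rule for naming took members with a locus that had the largest falls, the highest 3-week levels, a call in a tested contrast, a place in an annotation list or a ratio just inside the fold threshold, which covered all 7. It allowed a pair of unnamed IDs (Aa_G593160h1 and Aa_G1117920h1), and other IDs were chosen after their values were seen. The jasmonate search was widened to jasmonic acid, and the glucan endo search was limited to word starts. Alternatives were other scaling, filters, DESeq2 1.42.0, fewer groups, a replicate block, each library left out, and other thresholds of the rule. Between replicates the chi-square of counts was 1.50 to 24.7 per gene, so no library copied the counts of another in its group. The values do not show whether the replicates were separate plants. The eop055 leaf libraries differed most, at 8.71 to 24.7, against at most 5.77 in the other groups.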

Additional observations from a re-analysis of the deposited data

Results flagged for a closer look

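In 6 members the difference between eop055 and pep1-1 differed between leaves and apices past the threshold of the fit over all genes (edgeR's quasi-likelihood test, Benjamini-Hochberg adjusted p under 0.05). The apex libraries in this difference are those that chose the members, so it is not an independent test. On the log2 scale the effect in leaves minus that in apices was 1.95 for IAA14, 1.75 for Aa_G41600h1, 1.74 for PUP17, 1.01 for Aa_G109360h1, 0.85 for AT3G57020 and -2.34 for NRT2.3. IAA14 and AT3G57020 kept the call in all 23 alternative fits, and the other 4 lost it in 3 to 16 of them. These fits reuse the apex libraries that chose the members, so keeping the call is no independent support. The groups have 3 libraries each, too few for a search for single libraries far from the rest.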

How the results depend on the processing

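A fold minimum of 2.5 gave 73 members and one of 4 gave 22. Leaving out 1 library at a time gave 40 (without eop055 5-week apex replicate 3) to 55 (without pep1-1 3-week apex replicate 2), with 22 to 23 members above in leaves and 6 to 9 below, the 9 without eop055 5-week apex replicate 3. In leaves these fits called 10 to 13 members higher in eop055 and 1 to 4 lower. The 4 came without eop055 5-week apex replicate 3, and the 1 without pep1-1 leaf replicate 1 or eop055 leaf replicate 1 or 3. In apices they called 0 to 6 higher, the 6 without eop055 5-week apex replicate 3, and 0 to 2 lower, and for the leaf minus apex difference 2 to 6 positive and 0 to 5 negative, the 2 without eop055 5-week apex replicate 3 or eop055 leaf replicate 1 and the 5 without eop055 5-week apex replicate 3. No difference was negative without pep1-1 leaf replicate 1 or eop055 leaf replicate 3. In leaves the fit of the compared groups alone called 14 higher and 3 lower, with 8 and 1 of them shared with the main fit. In apices DESeq2 called 4 higher and the fit of the compared groups alone 1, and without a filter 1 was lower. For the difference, no filter gave 3 positive and DESeq2 gave 3 negative. With the replicate number as a block, leaves had 11 higher and 2 lower, apices 2 and 1, and the difference 4 and 1. Same-numbered libraries did not deviate together (median r of 0.02 over 45 pairs, against 0.00 over 90 others), so no pairing by number was detected. The labels do not say what the numbers mark, and a median over pairs cannot exclude a pairing. A fit of the compared groups alone is not possible for the difference, which uses all 6 groups. The uncalled apex effects of PR4 (-0.163 to 0.0914 on the log2 scale), NRT2.3 (-0.215 to 0.141) and IAA14 (-0.183 to 0.0451) changed sign without single apex libraries, and the cause was not tested. Genes near 1 CPM rest on few reads in a library, so their folds are the least certain.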
